A study of Mus musculus with 13 samples.

Results

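Fibroblasts of scarring lung, taken 14 days after bleomycin, were compared with fibroblasts of regrowing lung, taken 14 days after pneumonectomy, the surgical removal of part of the lung. Genes were kept when at least 2 of the 13 libraries of the series reached 1 RPKM (reads per kilobase of gene, normalised to library depth), which left 12938 of 43346 genes, 11230 of them protein-coding. The scarring group held 3 libraries from Col1a1-GFP mice aged 8 weeks and given bleomycin. In these mice a promoter of the collagen gene Col1a1 drives green fluorescent protein in collagen-producing cells. The regrowing group held 3 libraries described as primary sorted lung fibroblasts after pneumonectomy, named A, B and C here because their columns carry no replicate number. The design text of the series calls all its cells Col1a1-GFP fibroblasts, but the labels of the pneumonectomy libraries give no strain and no age in weeks. The header of the deposited table calls the mice of all groups young. The sham group, shown for reference, held 2 libraries from Col1a1-GFP mice of 8 weeks. Poly(A) selection, 12 PCR cycles and an RNA quality number of at least 6 are stated for the bleomycin and sham libraries only. Such differences in preparation cannot be told apart from pneumonectomy, and the labels do not state a gate for sorting or whether the mice were male or female. Nothing in the labels says that the libraries of a group came from separate animals, so each p measures only the spread between these libraries.

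Bleomycin is a drug that breaks DNA, and in the lungs of mice it causes injury, inflammation and then scarring, in which fibroblasts deposit collagen-rich matrix and alveoli are lost. After pneumonectomy the remaining lung expands and forms new alveoli, a process in which fibroblasts produce elastic fibres and signals for epithelium and vessels. Both are responses of the same cell class at the same time after the intervention, so the direct comparison asks which genes distinguish matrix production in a scar from that in growing tissue.

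The day 14 libraries differed in more than the fibroblast genes. Depth, read from the spacing of the lowest values, was 79.9 M to 99.9 M reads after bleomycin and 69.0 M to 75.5 M after pneumonectomy, so 1 read in a gene of 2 kilobases was worth 0.0050 to 0.00725 RPKM. Between 11433 and 11854 genes reached 1 RPKM after bleomycin, against 10318 to 10409 after pneumonectomy. Spearman correlations across genes were 0.970 to 0.989 within the bleomycin group, 0.972 to 0.981 within the pneumonectomy group and 0.780 to 0.827 between the groups. The libraries were rescaled before testing, with factors of 1.10 to 1.18 after bleomycin and 0.814 to 0.848 after pneumonectomy. Levels below are RPKM as deposited, whereas each difference is the mean of log2(scaled RPKM + 0.1) after bleomycin minus that after pneumonectomy, with its standard error (SE) and n = 3 and 3. The median difference of all genes was 0.02 on this scale and 0.47 without rescaling, so the ratio of 2 printed levels lies further toward bleomycin than the printed difference. Adjusted p values are Benjamini-Hochberg values from limma over all 12938 genes, and a gene is called higher or lower where that value is under 0.05.

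Markers of other cell types moved with the groups. All 21 endothelial markers tested were higher after bleomycin (36.2% of all genes were), with a median difference of 3.08. Prox1, also on this list, did not pass the filter. Without the filter 21 of the 22 listed markers were called higher and 1 lower, where 20.8% of 31266 genes were called higher. Their summed level was 462, 865 and 796 RPKM after bleomycin, 69.6, 46.3 and 86.1 after pneumonectomy and 57.6 and 55.8 in sham. Cdh5, the cadherin of endothelial junctions, stood at 64.8, 123 and 114 RPKM against 5.72, 2.1 and 6.62. Of 20 macrophage markers, 18 were higher and none lower, with Chil3 and Marco not called, and the summed level was 230.4, 789.9 and 554 RPKM against 65.5, 50.7 and 56.7. The macrophage lysozyme Lyz2 stood at 88.4, 296 and 245 RPKM against 27.2, 15.1 and 18.7. Of the tested markers, 7 endothelial and 4 macrophage ones passed the filter through the bleomycin libraries alone. Among granulocyte markers, 5 of 7 were higher, and the 3 haemoglobin genes tested were all higher, with a summed level of the erythroid markers of 12.1 to 15.8 RPKM against 0.914 to 1.53. All 9 mesothelial markers were lower after bleomycin (34.6% of all genes were), at a summed 3.98 to 6.6 RPKM against 25.1, 16.6 and 54.7 in libraries A, B and C. Airway markers summed to 54.7 to 60.8 RPKM against 481, 106 and 59.2, and Scgb1a1, the club cell secretoglobin, alone reached 418, 61.9 and 9.04 RPKM in libraries A, B and C. Of the pericyte and mural markers, 7 of 12 were lower and none higher, but without rescaling 4 were lower and 3 higher. Only 3 of 15 lymphocyte markers passed the filter. Cd3e, a T-cell receptor subunit, differed by -3.18 ± 0.36, the T-cell receptor constant segment Trac by 1.93 ± 0.30, and Ighm was not called. Without the filter 8 of the 15 were called higher and 2 lower. In bulk RNA, fewer cells of a type and less RNA per cell cannot be told apart. Of 12 genes that mark fibroblasts in general, 9 were lower and none higher, with Col1a1, Col1a2 and Vim not called. Within the bleomycin group the endothelial sum was lowest in replicate 1, and all 21 endothelial and 20 macrophage markers had their lowest value there, as did 56.0% of all genes. The part of other cells in the results below was not tested. Where a gene is said to be highest or lowest in a library, this describes only the order of the libraries.

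**Figure D1:**
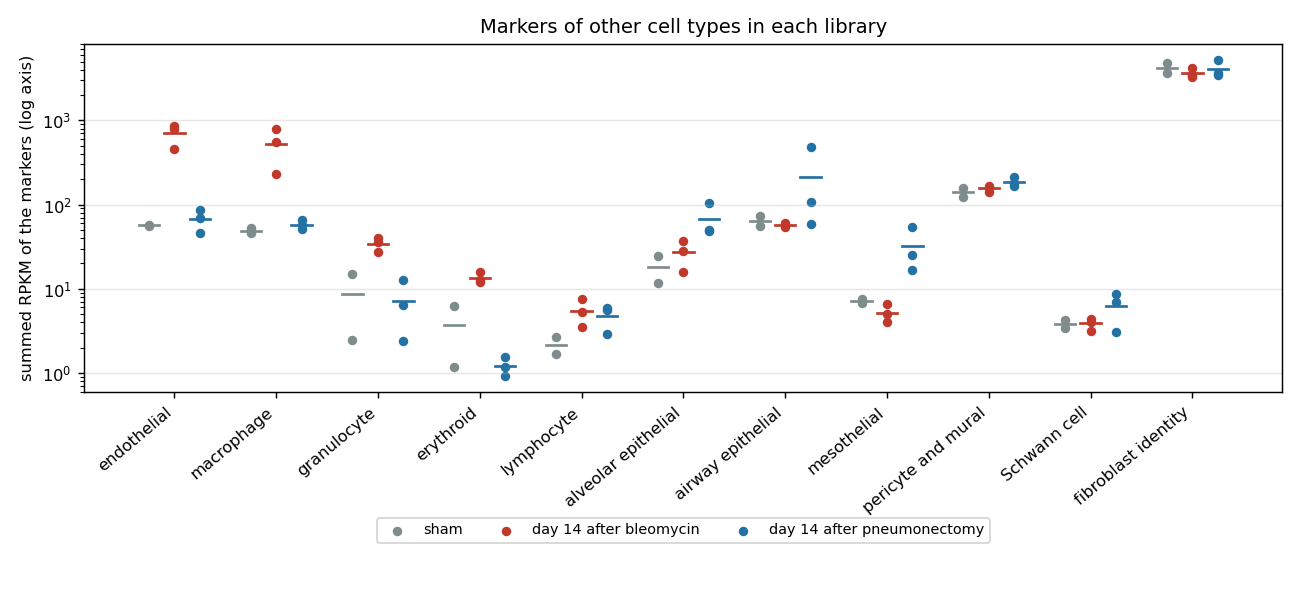
Summed RPKM of the markers of each cell type (log axis), with 1 point per library and a bar at the group mean, for sham (grey), day 14 after bleomycin (red) and day 14 after pneumonectomy (blue). Endothelial and macrophage sums lie higher in all 3 bleomycin libraries than in any pneumonectomy library, mesothelial sums lie lower, and the fibroblast identity sums overlap.

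In all, 9158 genes (70.8%) differed at adjusted p below 0.05, 4684 higher after bleomycin (36.2%) and 4474 lower (34.6%). Of these, 1248 were higher and 1754 lower by over 2-fold. The libraries of the groups did not overlap for 10416 genes (80.5%). Against a minimum change of 1.5-fold, 3269 genes (25.3%) passed, 1421 higher (11.0%) and 1848 lower (14.3%). The split of the calls depended on the scale. On the scale as deposited 7918 genes were higher and 2307 lower, so counts of a list below are to be read beside these shares, and small differences are uncertain in sign.

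The gene with the greatest difference was Spp1, on chr5:104435118-104441050 of GRCm38, which encodes osteopontin, a secreted phosphoprotein that binds integrins and CD44. It stood at 1341, 715 and 1297 RPKM after bleomycin and at 9.87, 4.25 and 6.49 after pneumonectomy, beside 2.91 and 2.32 in sham. No bleomycin library came near the pneumonectomy range, and the difference was 6.89 ± 0.34 (adjusted p = 5.09e-08), about 118-fold. Macrophages also express Spp1, and its level was lowest in bleomycin replicate 2, the library with the highest macrophage sum. This describes only the order of the libraries, and the part of macrophages in the Spp1 level was not tested. Lrg1, a leucine-rich glycoprotein, followed with 45.5, 65.7 and 75.5 RPKM against 1.43, 0.628 and 1.41, a difference of 5.24 ± 0.59. Sema7a, a membrane-anchored semaphorin, stood at 35.7, 45.5 and 49.5 RPKM against 1.03, 0.503 and 1.4 (4.99 ± 0.35). Scn3b, a sodium channel subunit, differed by 4.97 ± 0.31. The other 6 of the 10 greatest differences, at 4.64 to 4.87, belonged to Grem1, an antagonist of BMPs (bone morphogenetic proteins), to the endothelial genes Gpihbp1, Egfl7, Apln and Sox17, and to C1qa, a complement gene of macrophages. Like the endothelial markers, Lrg1, Sema7a and Scn3b had their lowest bleomycin value in replicate 1, as did 56.0% of all genes.

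By absolute level, the greatest excess after bleomycin belonged to Spp1, Fn1, Lyz2, Ly6a and Lgals1. Fn1, the matrix glycoprotein fibronectin, stood at 777, 517 and 579 RPKM against 169, 173 and 185 (1.34 ± 0.26, adjusted p = 6.27e-04), with 162 and 209 in sham. The level after pneumonectomy thus lay within the sham range. Lgals1, a galactoside-binding lectin, stood at 317, 216 and 265 RPKM against 103, 94.3 and 102 (0.93 ± 0.14). Both were highest in bleomycin replicate 1, whereas Ly6a, the surface antigen Sca-1, was lowest there, at 141, 260.4 and 228 RPKM against 38.9, 41.1 and 31.4 (1.99 ± 0.29).

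On the other side, the gene with the greatest deficit after bleomycin was Ptx3, a pentraxin of the acute inflammatory response, on chr3:66219910-66225805. It stood at 1.77, 1.74 and 1.62 RPKM after bleomycin, 96.5, 66.4 and 30.8 after pneumonectomy and 17.6 and 11.7 in sham (-5.47 ± 0.51, adjusted p = 2.56e-06). The sham libraries lay between the day 14 groups. Sost, the WNT and BMP antagonist sclerostin, stood at 0.443, 0.936 and 0.515 RPKM against 18.7, 16.6 and 25.1 (-5.26 ± 0.37). Has1, a hyaluronan synthase, stood at 7.04, 5.01 and 4.91 RPKM against 164, 200.2 and 100.5 (-5.18 ± 0.51), and Tnfaip6, which modifies hyaluronan, at 5.96, 4.73 and 4.7 against 185, 168 and 77.9 (-5.16 ± 0.48). Sost was higher in library C than in A and B, whereas Ptx3, Has1 and Tnfaip6 were lowest in library C, yet none of the 4 overlapped with the bleomycin group. Hk2, the inducible hexokinase that commits glucose to glycolysis, stood at 2.43, 1.62 and 1.97 RPKM against 48.9, 52.1 and 29.1 (-4.79 ± 0.33), with 3.03 and 1.27 in sham. The remaining 5 of the 10 greatest deficits were Scgb1a1, Cxcl1, Il6, Nr4a3 and Itpkc, a kinase of inositol phosphates at 2.46, 2.41 and 2.45 RPKM against 41.7, 43.8 and 23.6. The Scgb1a1 difference of -5.07 ± 1.86 (adjusted p = 0.0286) lost its call without bleomycin replicate 1 or 3, without library A or B, and without the filter (-3.69 without A).

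By absolute level the greatest deficits were those of Gsn, Thbs1, Cxcl1, Dcn and Inmt. Gsn, the actin-severing protein gelsolin, stood at 209, 349 and 289 RPKM after bleomycin, 3201, 3737 and 2741 after pneumonectomy and 6189 and 5589 in sham (-4.0 ± 0.26). Its level was thus below sham in both groups, and about 16-fold lower after bleomycin than after pneumonectomy. Thbs1, the matricellular protein thrombospondin 1, showed another order, with 239, 166 and 197 RPKM after bleomycin, 904, 1107 and 644 after pneumonectomy and 91.2 and 34.9 in sham (-2.59 ± 0.31). Inmt, an indole methyltransferase of alveolar fibroblasts, stood at 34, 51.5 and 49.2 RPKM against 474, 578 and 501 (-4.01 ± 0.21), with 521 and 656 in sham.

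**Figure D2:**
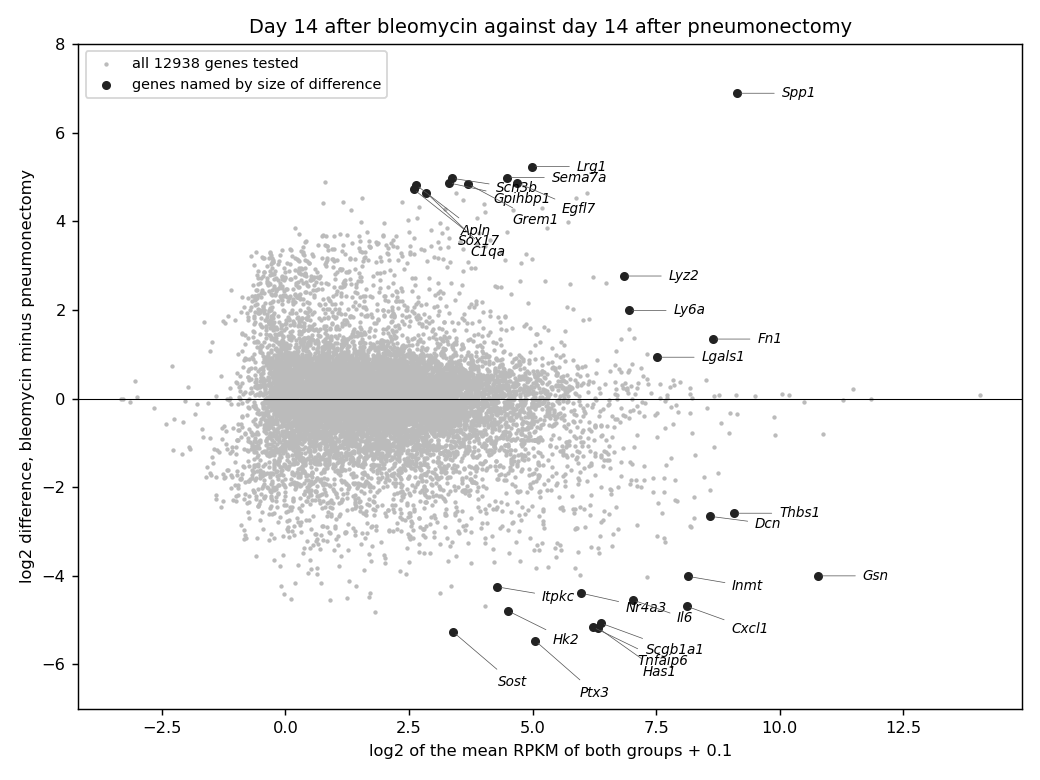
Difference between the groups (log2 of scaled RPKM + 0.1, bleomycin minus pneumonectomy) against log2 of the mean deposited RPKM of both groups, for the 12938 genes tested (grey), with the genes named by size of difference in black. Spp1 lies apart at 6.89, and the named genes reach -5.47 on the other side.

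Genes of the fibrotic fibroblast state were mostly higher after bleomycin. This list holds genes known to mark the collagen-producing cells of scars. All 26 were tested, of which 14 were higher, 6 lower and 6 not called, with a median of 1.41 beside 0.02 over all genes. Grem1 stood at 28.7, 21 and 25.5 RPKM against 0.929, 0.40 and 0.427, with 0.0785 and 0.0302 in sham (4.84 ± 0.37, adjusted p = 5.58e-07). Cthrc1, a secreted collagen triple-helix repeat protein used as a marker of this state, stood at 45.8, 32.6 and 42.2 RPKM against 4.9, 2.63 and 2.58 (3.13 ± 0.37). Its pneumonectomy libraries lay close to the sham values of 4.55 and 2.4. Tnc, the matrix glycoprotein tenascin C, stood at 140.4, 98.5 and 109 RPKM against 19.1, 23.9 and 30.1 (1.79 ± 0.37, adjusted p = 9.84e-04). Here the pneumonectomy libraries lay well above the sham values of 1.5 and 1.14, so that both groups exceeded sham and the bleomycin group lay highest. The tenascin Tnn (3.63), Lrrc15 (2.54), the protease Adam12 (2.41) and the activin subunit Inhba (1.53), all chosen after their values were seen, were also higher. Spp1, Grem1, Cthrc1 and Tnc had their highest bleomycin value in replicate 1, where endothelial and macrophage sums were lowest, as did 16 of the 26 members and 25.5% of all genes. Postn, periostin, was at 44.4, 47.7 and 42 RPKM against 35.4, 31 and 37.3 and was not called (-0.09 ± 0.22, adjusted p = 0.718). Its 95% interval was -0.57 to 0.38, and both groups exceeded the sham values of 18.1 and 14.1. On the scale as deposited the Postn difference turned to 0.37. The lower members were Comp, Pdlim3, Aspn, Lrrc17, Fap and Cilp. Pdlim3, an actinin-binding protein of muscle, stood at 2.69, 4.73 and 4.58 RPKM against 15.7, 18.3 and 18.1 (-2.59 ± 0.24), and Aspn, the proteoglycan asporin, at 12.3, 16.5 and 13.8 against 52.3, 38.8 and 43.6 (-2.12 ± 0.15).

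**Figure D3:**
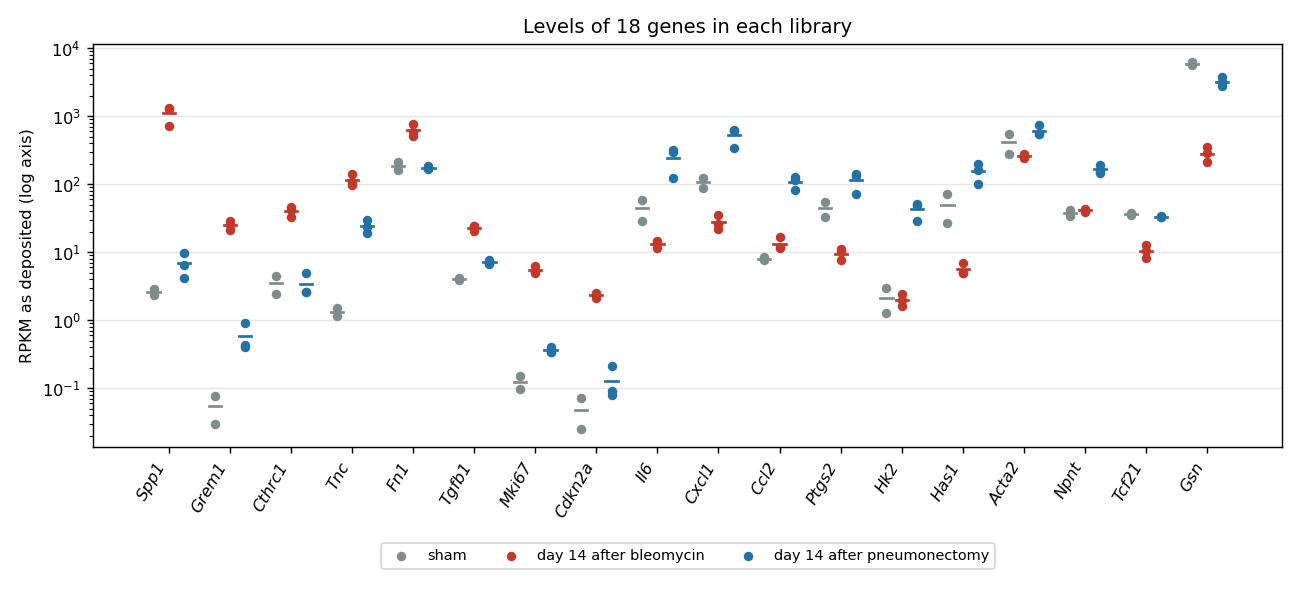
RPKM of 18 genes (log axis) with 1 point per library and a bar at the group mean, for sham (grey), day 14 after bleomycin (red) and day 14 after pneumonectomy (blue). Spp1, Grem1, Cthrc1 and Mki67 lie higher in all bleomycin libraries, and Il6, Cxcl1, Ptgs2, Hk2 and Has1 lie higher in all pneumonectomy libraries.

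The genes of the main fibrillar collagens were not called or differed little. Fibrillar collagens form the tensile fibres of the lung and need hydroxylases, propeptide-cleaving proteases and lysyl oxidases to mature. Col1a1 stood at 1633, 1196 and 1289.8 RPKM after bleomycin and 1427, 707 and 783 after pneumonectomy, with 437 and 670.01 in sham (0.09 ± 0.28, adjusted p = 0.782, 95% interval -0.51 to 0.70). The groups overlapped, since library A lay within the bleomycin range and B and C below it. Without library A the Col1a1 difference was 0.40, and without library C it was -0.06, also not called. On the scale as deposited the Col1a1 difference was 0.56. Col1a2 stood at 626, 474 and 501 RPKM against 668, 386 and 422 and was not called (-0.32 ± 0.23, adjusted p = 0.234), with a sign that turned on the scale as deposited (0.15). Col3a1 was lower after bleomycin (-0.82 ± 0.22, adjusted p = 0.00547) at 933, 784 and 776 RPKM against 1441, 856 and 965, but the levels overlapped and the call was lost on the scale as deposited (-0.36).

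Of the 33 genes of fibrillar collagens and their processing, 5 were higher, 12 lower and 16 not called. The median of -0.05 turned to 0.42 on the scale as deposited, where 17 were higher and 8 lower. The 5 higher genes were Col5a3, Col12a1, P4ha3, Adamts14 and Fkbp10. P4ha3, a subunit of the prolyl hydroxylase that stabilises the collagen helix, stood at 21, 16.9 and 17.6 RPKM against 3.16, 2.71 and 2.53 (2.22 ± 0.36). Col12a1, a collagen that binds to the surface of fibrils, stood at 32.5, 21.3 and 20.5 RPKM against 3.85, 3.42 and 4.63 (2.13 ± 0.38), and Col5a3 at 65.2, 36.2 and 48 against 12.1, 10.7 and 12.1 (1.59 ± 0.24). Among the lower genes were several that process collagen outside the cell. Pcolce2, an enhancer of procollagen cleavage, stood at 8.28, 10.02 and 8.97 RPKM against 57.7, 72.8 and 61.2 (-3.26 ± 0.22). Adamts2, which cleaves the amino-terminal propeptide, stood at 32, 35.9 and 28.8 RPKM against 94.1, 90.6 and 79.96 (-1.92 ± 0.15). The lysyl oxidases Loxl1 and Loxl4 differed by -1.21 ± 0.09 and -2.64 ± 0.23, and the collagen hydroxylase gene Leprel2 by -1.22 ± 0.08. Lox itself was not called (-0.12 ± 0.24). In this list 26 of 33 genes had their highest bleomycin value in replicate 1, as did 25.5% of all genes.

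Elastic fibre genes were mostly lower after bleomycin. Elastic fibres consist of an elastin core on fibrillin microfibrils, with fibulins and latent TGF-beta binding proteins that guide assembly. All 20 were tested, 3 higher, 14 lower and 3 not called, with a median of -0.72 (-0.25 on the scale as deposited, with 5 higher and 9 lower). Eln, the core protein elastin, stood at 1517, 1999.9 and 1459 RPKM against 2078, 1680.5 and 2544 (-0.80 ± 0.32, adjusted p = 0.0411), the libraries overlapped, and both groups exceeded the sham values of 343 and 357. The Eln call was lost on the scale as deposited (-0.33), with upper-quartile scaling, without the filter, and without bleomycin replicate 1 or 3 or library A or C. Among the other members, Emilin1 and Efemp2 were not called, and Fbln1, Ltbp4 and Mfap4 differed more than Eln. Fbln1, a fibulin, stood at 12, 25.2 and 18 RPKM after bleomycin, 169, 140.2 and 121 after pneumonectomy and 299.7 and 280.2 in sham (-3.48 ± 0.23). Ltbp4, which binds latent TGF-beta and is needed for elastic fibre assembly, stood at 41, 63.2 and 52.2 RPKM against 324, 405 and 336 (-3.25 ± 0.17). Mfap4, a microfibril-associated protein, stood at 118, 167 and 140.4 RPKM against 499, 435 and 489, with 196 and 206 in sham (-2.22 ± 0.17). Thus Fbln1 was below sham in both groups, whereas the Mfap4 level lay below sham after bleomycin and above it after pneumonectomy. The higher members were Fbn2, a fibrillin of developing tissue (2.12 ± 0.49), Ltbp2 (1.55 ± 0.32) and Mfap3 (0.52 ± 0.09).

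Basement membrane genes were lower as well. The basement membrane is the sheet of laminins, collagen IV and nidogens under epithelium and around vessels. Of 22 tested, 17 were lower, only Col4a2 was higher, and 4 (Sparc, Nid2, Col4a1 and Lama5) were not called, with a median of -1.17. The collagen IV chains split by pair. Col4a5 stood at 9.78, 14.3 and 11.8 RPKM after bleomycin, 68.9, 56.1 and 59.4 after pneumonectomy and 27.2 and 26.7 in sham (-2.83 ± 0.13), and Col4a6 at 1.46, 2.59 and 2.25 against 15, 14.5 and 16 (-3.28 ± 0.16). Col4a3 and Col4a4, which with Col4a5 form the network of the mature alveolus, differed by -2.94 ± 0.32 and -3.32 ± 0.32. In contrast Col4a1 and Col4a2, which encode the chains found in all basement membranes and are also expressed by endothelium, differed by 0.42 ± 0.18 and 0.52 ± 0.19, and Col4a1 was not called (adjusted p = 0.0541). The laminins Lama2 and Lamb2 differed by -2.49 ± 0.13 and -1.91 ± 0.09. Npnt, nephronectin, stood at 42.5, 38.5 and 42.5 RPKM after bleomycin and 145, 157 and 192 after pneumonectomy, with 41.2 and 34.7 in sham (-2.45 ± 0.11, adjusted p = 2.78e-08). Its bleomycin libraries lay close to sham, and the pneumonectomy libraries stood apart. Itga8, the integrin chain that binds nephronectin, differed by -2.91 ± 0.17. Mesothelium also makes basement membrane, and its part in these levels was not tested.

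Small leucine-rich proteoglycans bind collagen fibrils and set their diameter and spacing. Of 10 tested, 9 were lower after bleomycin and 1, Fmod, was higher, with a median of -1.99 and the same counts on the scale as deposited. Dcn, decorin, stood at 117, 169 and 131 RPKM after bleomycin, 726, 666 and 515 after pneumonectomy and 1382 and 1856 in sham (-2.66 ± 0.22). Ogn, Ecm2 and Lum followed the same order of groups, with differences of -2.79 ± 0.18, -3.25 ± 0.23 and -1.86 ± 0.14. For these 4 genes the level after bleomycin was the lowest of the 3 groups, and the pneumonectomy level lay below sham. Fmod, fibromodulin, went the other way, at 53, 38.1 and 44.8 RPKM against 18, 16.8 and 12.8 (1.04 ± 0.29), with 3.78 and 6.48 in sham.

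Matrix proteases and their inhibitors moved in both directions. Of 30 tested, 11 were higher and 18 lower, with Mmp19 not called and a median of -0.83. The higher genes included the collagenases Mmp13 and Mmp8. Mmp13 stood at 11, 4.75 and 6.9 RPKM against 0.43, 0.208 and 0.168 (3.97 ± 0.37), and Mmp8 at 4.14, 3.04 and 3.17 against 0.267, 0.141 and 0.219 (3.16 ± 0.25). With a pseudocount of 1 RPKM these differences were 2.46 and 1.68. Mmp9, Mmp12 and Ctss, which macrophages and granulocytes express, were higher as well, at 2.19, 3.18 and 3.07. Both collagenases had their highest value in bleomycin replicate 1, where the macrophage sum was lowest. The granulocyte sum was 35.8, 39.8 and 27.7 RPKM in bleomycin replicates 1 to 3 and 2.42, 12.8 and 6.43 in libraries A, B and C, and its part in these values was not tested. Timp1, an inhibitor of metalloproteinases, was higher at 246, 143 and 205 RPKM against 56.6, 56.4 and 32 (1.58 ± 0.28), whereas Timp2 was lower at 143, 133 and 132 against 279.8, 289.7 and 262 (-1.5 ± 0.12). Mmp2, the gelatinase of resting fibroblasts, stood at 77.2, 81.2 and 75.7 RPKM after bleomycin, 337, 269.6 and 268 after pneumonectomy and 202 and 192 in sham (-2.36 ± 0.10). The bleomycin level lay below sham and the pneumonectomy level above it.

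**Figure D4:**
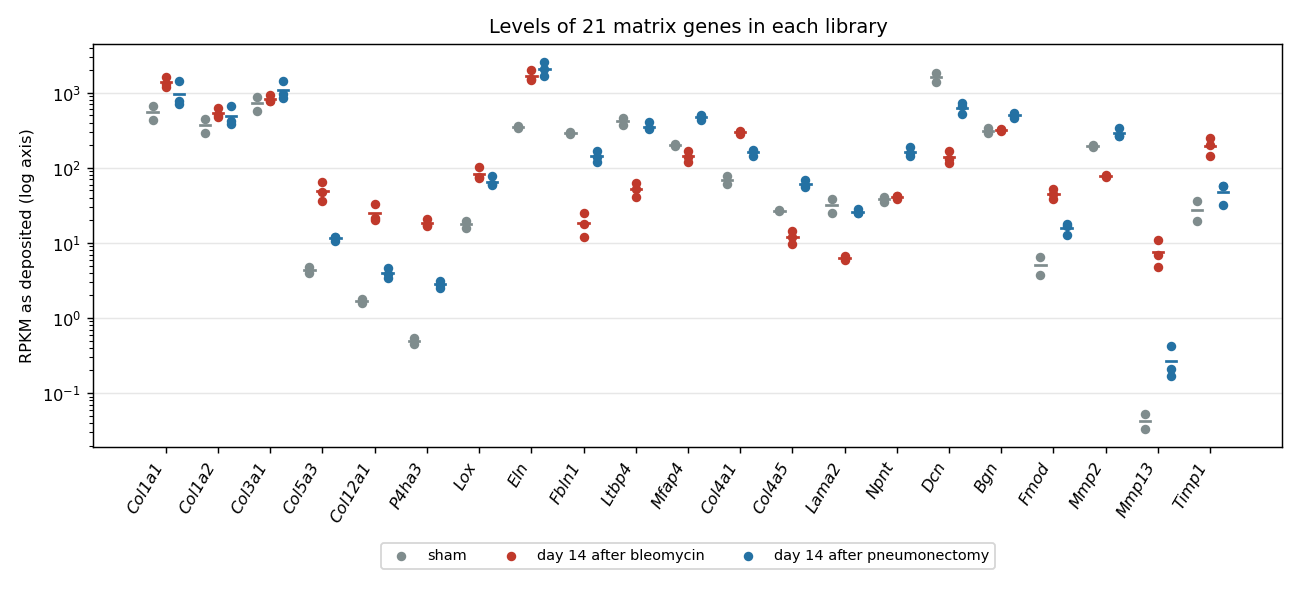
RPKM of 21 matrix genes (log axis) with 1 point per library and a bar at the group mean, for sham (grey), day 14 after bleomycin (red) and day 14 after pneumonectomy (blue). Col1a1, Col3a1 and Eln overlap between the day 14 groups, Col5a3, Col12a1, P4ha3 and Mmp13 lie higher after bleomycin, and Fbln1, Ltbp4, Col4a5, Npnt, Dcn and Mmp2 lie lower.

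TGF-beta is secreted in a latent form held by binding proteins, is released by integrins, and signals to SMAD factors that also induce their own repressors. Of 25 genes of this pathway, 4 were higher after bleomycin, 19 lower and 2 not called, with a median of -1.19. The ligands went apart. Tgfb1 stood at 20.7, 24 and 24.6 RPKM after bleomycin, 6.86, 6.75 and 7.82 after pneumonectomy and 4.13 and 3.9 in sham (1.22 ± 0.14), whereas Tgfb2 stood at 5.83, 5.21 and 5.92 against 9.97, 12 and 11.5 (-1.43 ± 0.12) and Tgfb3 differed by -1.24 ± 0.12. Tgfb1 was lowest in bleomycin replicate 1. Of the receptors, Tgfbr3 (betaglycan) and Tgfbr1 were lower, at -2.09 ± 0.08 and -1.08 ± 0.08. Of the binding proteins Ltbp4, Ltbp3 and Ltbp1 were lower, and Ltbp2, which does not bind latent TGF-beta, was higher. Of the repressors, Skil, Ski, Smad7, Smurf2 and Tgif1 were lower, and Smurf1 and Pmepa1 were not called. Skil, which blocks SMAD complexes, stood at 5.9, 6.3 and 6.2 RPKM against 20.6, 22.2 and 15.3, with 7.48 and 6.79 in sham (-2.09 ± 0.14), and Smad7 and Tgif1 differed by -1.47 ± 0.13 and -1.71 ± 0.12. Among target genes Fn1 was higher.

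BMP signalling is a branch of the same family that secreted antagonists hold back. Of 26 genes of BMP antagonists, ligands and targets, 7 were higher, 19 lower and none was not called, with a median of -1.02. The antagonists went in both directions. Grem1 was higher, Fst (follistatin) was higher (1.73 ± 0.22), and Chrd (chordin) and Twsg1 were among the lower ones. Chrd and Twsg1 differed by -1.67 ± 0.12 and -1.87 ± 0.09. The ligands Bmp4 and Bmp5 were lower (-1.16 ± 0.12 and -0.85 ± 0.14). Among the targets Id4 stood at 3.4, 5.19 and 5.07 RPKM against 14.7, 16.2 and 19.7 (-2.34 ± 0.16), Id3 and Id2 were lower, and Id1 (0.53 ± 0.19) and Smad6 (2.06 ± 0.17), which endothelium also expresses, were higher.

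YAP and TAZ are coactivators that respond to tension and cell shape. Of 22 of their targets, 4 were higher, 17 lower and 1 not called, with a median of -0.76 (5 higher and 10 lower on the scale as deposited). Cyr61 and Ctgf, the matricellular targets most used as readouts, differed by -2.57 ± 0.35 and -1.79 ± 0.25. Cyr61 stood at 82.3, 69.2 and 69.7 RPKM against 358, 311 and 286, and the groups did not overlap. Gadd45b, a stress gene on this list, stood at 16.4, 21 and 19.3 RPKM against 139.5, 141 and 141, with 47.5 and 51.7 in sham (-3.36 ± 0.18), and F3, tissue factor, at 5.78, 8.38 and 7.64 against 24.4, 23.2 and 24.8 (-2.2 ± 0.20). Several of these, among them Cyr61, Ctgf, Gadd45b and Thbs1, are also induced rapidly by other stimuli. Of 26 WNT genes, 4 were higher (Notum, Tcf7, Wnt6 and Sfrp1), 13 lower and 9 not called, with a median of -0.58. Axin2, a general target of WNT signalling, was not called (-0.01 ± 0.18). Rspo1, an enhancer of WNT signalling that mesothelium also makes, differed by -2.11 ± 0.22, and the R-spondin receptors Lgr6 and Lgr4 by -2.57 ± 0.26 and -1.19 ± 0.10.

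**Figure D5:**
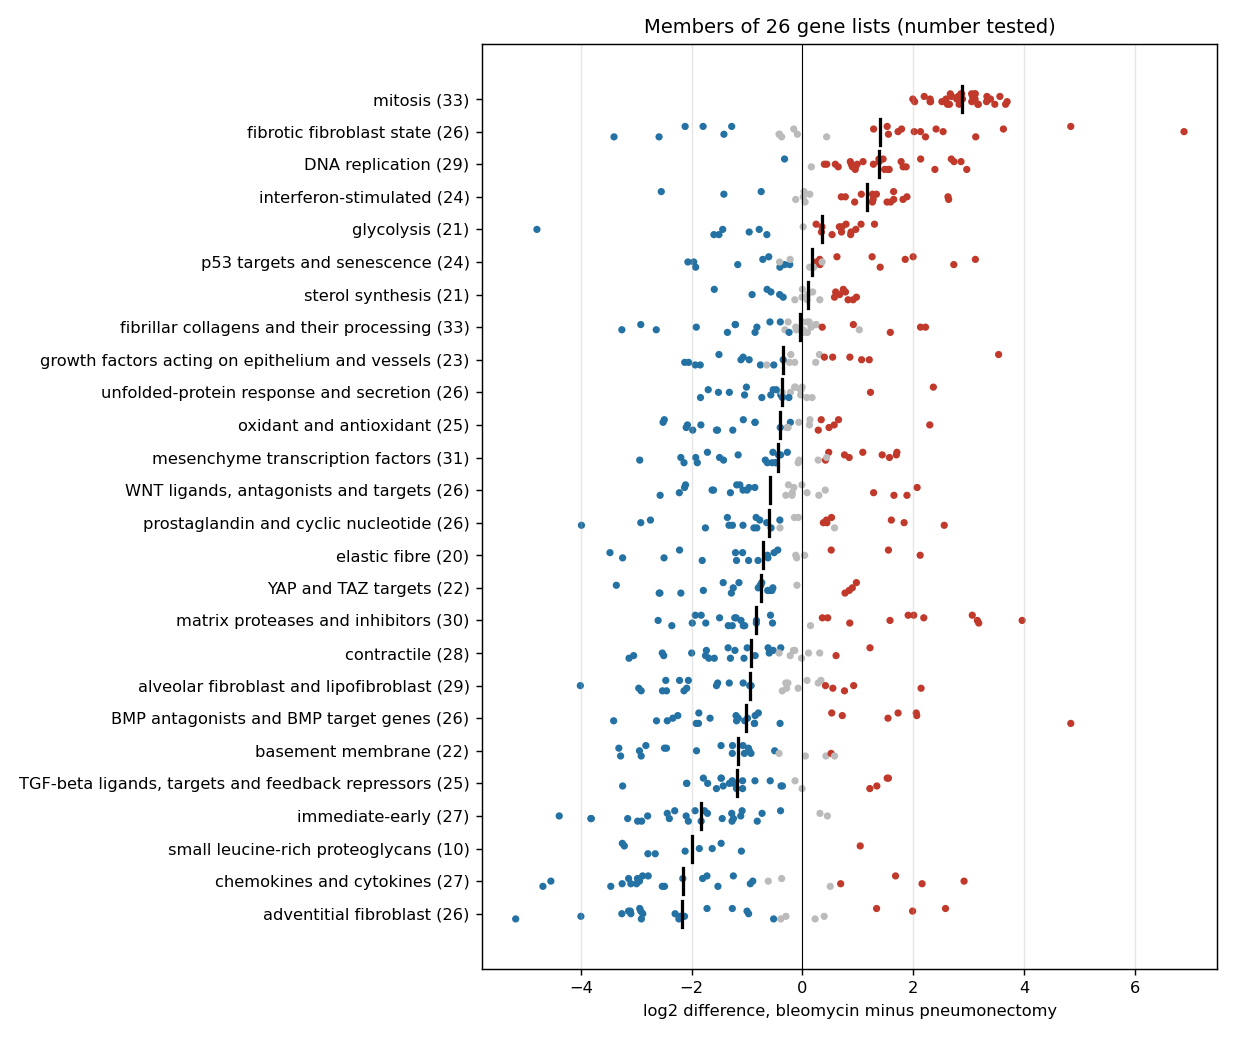
Difference between the groups (log2 of scaled RPKM + 0.1, bleomycin minus pneumonectomy) for each tested member of 26 gene lists, ordered by median (black bar), with the number tested in brackets. Red points were called higher after bleomycin, blue points lower, and grey points were not called. Mitosis, fibrotic state, DNA replication and interferon lists have the highest medians, and adventitial, chemokine, proteoglycan and immediate-early lists the lowest.

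Contractile genes were mostly lower after bleomycin than after pneumonectomy. Of 28 tested, 2 (Myh9 and Tpm4) were higher, 19 lower and 7 not called, with a median of -0.93. Acta2, smooth muscle actin and a classical marker of myofibroblasts, stood at 239, 253 and 283 RPKM after bleomycin and 544, 539 and 743 after pneumonectomy (-1.69 ± 0.25, adjusted p = 9.23e-05). The day 14 groups did not overlap, but of the sham libraries, at 556 and 278, 1 lay in the range of each. Myh11, smooth muscle myosin, stood at 18.3, 31.2 and 36.4 RPKM against 137, 154 and 214, with 158 and 75 in sham (-3.05 ± 0.31). Synpo2 and Smtn differed by -3.13 ± 0.29 and -1.59 ± 0.18, and the nonmuscle myosin Myh10 by -1.3 ± 0.12. Its paralogue Myh9 was higher (1.22 ± 0.16). Myl9, the regulatory light chain, stood at 57.7, 80.6 and 86.2 RPKM against 189, 190.01 and 272 (-2.0 ± 0.22). Acta2, Myh11, Myl9 and Smtn were highest in library C, in which the pericyte gene Notch3, a Notch receptor, was also highest (17.7, 12.3 and 28.1 RPKM in A, B and C).

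The promoter of Myl9 holds a CArG box, the element bound by serum response factor (SRF), which drives many contractile genes. Of 22 contractile genes with a promoter in RefSeq (build GRCm38.p6), 5 held this element in the 250 bases before the start (22.7%), against 1.40% of 27025 promoters of the same length and 1.15% of those of the tested genes, on either strand. Of the 5, Myl9, Vcl and Srf were lower after bleomycin, and Actg1 and Cnn2 were not called. The same search in the immediate-early list below found the element in 1 of 21 promoters (4.76%). A match is a description of the letters and not of binding. The sequence is shown because Myl9 had the smallest p of the contractile genes with a match, and its CArG box is in capitals, at chr2:156775214-156775463 (plus strand) of GRCm38.p6, 5′ to 3′.
Myl9: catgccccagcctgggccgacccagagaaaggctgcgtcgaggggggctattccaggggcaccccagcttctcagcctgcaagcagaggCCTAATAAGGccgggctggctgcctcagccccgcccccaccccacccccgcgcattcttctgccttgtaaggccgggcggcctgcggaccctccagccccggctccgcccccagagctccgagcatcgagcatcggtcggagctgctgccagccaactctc

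Genes of alveolar fibroblasts, the cells next to the alveolar epithelium that include lipid-storing lipofibroblasts, were lower or split. Of 29 tested, 5 were higher, 16 lower and 8 not called, with a median of -0.95. Tcf21, a transcription factor of this lineage, stood at 8.14, 12.9 and 10.4 RPKM after bleomycin, 32.5, 33.2 and 33.7 after pneumonectomy and 37.2 and 35.8 in sham (-2.14 ± 0.15, adjusted p = 2.59e-07). Pneumonectomy and sham libraries were close together and the bleomycin libraries stood apart. Fgfr4, a receptor for fibroblast growth factors, showed a different order with 2.59, 2.88 and 2.54 RPKM, 10.2, 10.2 and 13 RPKM and 1.99 and 2.37 RPKM in the same groups (-2.47 ± 0.12). Col13a1, a transmembrane collagen that marks these cells, stood at 5.7, 6.4 and 6.17 RPKM against 17.3, 17.9 and 20.9 (-2.06 ± 0.08), with 3.69 and 3.34 in sham. Slc7a10, an amino acid transporter, differed by -2.96 ± 0.14, the carboxylesterase Ces1d by -2.09 ± 0.10 and the receptor Pdgfra by -1.32 ± 0.14, at 44.1, 32 and 34.7 RPKM against 61.4, 63.1 and 75.3. The higher members were Fabp5, Pparg, Tbx2, Plin2 and Tbx5, of which Fabp5, a fatty acid binding protein that macrophages and endothelium also express, differed most (2.14 ± 0.36).

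Adventitial fibroblasts surround large vessels and airways and hold progenitor cells. Of 26 genes of this class, 19 were lower after bleomycin, 4 were not called (Cd34, Cd248, Ackr3 and Dpp4), and 3 were higher, with a median of -2.17, the lowest of the 26 pathway lists. Serpinf1, an inhibitor of vessel growth, stood at 17, 23.8 and 20.4 RPKM after bleomycin, 150.4, 105 and 85.6 after pneumonectomy and 202 and 202 in sham (-2.91 ± 0.22). Complement C3 stood at 79.1, 120.3 and 77.5 RPKM against 537, 516 and 408, with 865 and 1069 in sham (-2.88 ± 0.20). Entpd2, an ectonucleotidase, differed by -3.11 ± 0.26, and the progenitor markers Pi16 and Dpp4 by -2.23 ± 0.24 and 0.39 ± 0.39. For Serpinf1, C3, Entpd2, Pcolce2 and Gsn the groups stood in 1 order, with bleomycin below pneumonectomy and pneumonectomy below sham. The 3 higher genes were Ly6c1, Ly6a and Anxa3, of which endothelium also expresses Ly6c1 and Ly6a, and Ly6a was lowest in bleomycin replicate 1. Of the list, 20 members had their lowest bleomycin value in replicate 1 and 21 their lowest pneumonectomy value in library C, against 56.0% and 28.8% of all genes.

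The inflammatory genes of fibroblasts were among those lowest after bleomycin. Fibroblasts attract leukocytes with chemokines, and many of these genes are activated by the transcription factor NF-kB. Of 27 chemokine and cytokine genes tested, 4 were higher (Il1rn, Saa3, Cxcl12 and Cxcl14), 20 lower and 3 not called, with a median of -2.16. Cxcl1, a neutrophil attractant on chr5:90891241-90893115, stood at 35.7, 25.8 and 21.8 RPKM after bleomycin, 624, 616 and 342 after pneumonectomy and 124 and 88.2 in sham (-4.69 ± 0.36, adjusted p = 5.97e-07). Il6, the cytokine interleukin 6, stood at 14.9, 13.8 and 11.6 RPKM against 303, 315 and 123, with 59.4 and 29.2 in sham (-4.54 ± 0.53). For both, the bleomycin libraries lay below sham and the pneumonectomy libraries above it. Ccl2, an attractant of monocytes, stood at 16.8, 11.9 and 11.7 RPKM against 126, 115 and 83.1 (-3.46 ± 0.25), and its sham values of 8.48 and 7.57 lay below both groups. The adhesion molecules Icam1 and Vcam1 differed by -3.1 ± 0.16 and -2.94 ± 0.17. Icam1 stood at 19.97, 26 and 22 RPKM against 152, 157 and 115, with 36.4 and 35.5 in sham. Nfkbia, the inhibitor of NF-kB that is itself a target, stood at 39.4, 48.7 and 47.7 RPKM against 144, 139 and 155 (-2.16 ± 0.19). Library C had the lowest pneumonectomy value for 21 of the 27 genes, against 28.8% of all genes, and its Il6 and Cxcl1 levels were nearest to sham. The macrophage and granulocyte sums were higher after bleomycin, the group in which these attractants were lower.

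Of 24 listed chemokine and cytokine genes with a RefSeq promoter, 10 held an NF-kB site in the 250 bases before the start (41.7%), against 7.01% of 27025 promoters and 8.99% of those of the tested genes, searched on both strands. Of those tested and with a site, Cxcl1, Il6, Cxcl2, Lif, Tnfaip3, Nfkbia, Cxcl10 and Csf1 were all lower after bleomycin. So were 20 of the 27 tested genes of the list and 34.6% of all genes. Icam1, Il33, Il1r1 and Ccl19 were lower too and had no match in this window, which says nothing about the factor. The promoters of Cxcl1 and Nfkbia are shown as those of smallest p with a match, with the sites in capitals (in Cxcl1, 2 matches that overlap). They lie at chr5:90890995-90891244 (plus strand) and chr12:55492648-55492897 (minus strand) of GRCm38.p6 and are written 5′ to 3′.
Cxcl1: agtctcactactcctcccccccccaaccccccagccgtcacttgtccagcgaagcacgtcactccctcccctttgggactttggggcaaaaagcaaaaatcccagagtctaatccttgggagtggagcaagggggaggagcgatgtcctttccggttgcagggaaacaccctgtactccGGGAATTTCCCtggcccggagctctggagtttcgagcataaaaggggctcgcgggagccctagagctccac
Nfkbia: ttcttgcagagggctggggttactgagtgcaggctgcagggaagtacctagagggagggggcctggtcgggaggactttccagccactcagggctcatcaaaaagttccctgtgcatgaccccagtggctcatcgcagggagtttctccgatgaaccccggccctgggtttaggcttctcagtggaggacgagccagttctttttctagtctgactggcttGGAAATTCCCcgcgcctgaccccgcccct

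Immediate-early genes, which are transcribed within minutes of a stimulus, followed the same direction. All 27 were tested, none was higher, 25 were lower, and Dusp2 and Klf2 were not called, with a median of -1.83 (2 higher and 22 lower on the scale as deposited). Nr4a3, a nuclear receptor, stood at 7.85, 7.18 and 7.37 RPKM after bleomycin, 136, 143 and 78.2 after pneumonectomy and 20.4 and 12.4 in sham (-4.39 ± 0.33). Maff, a small MAF factor, stood at 9.85, 10.4 and 9.82 RPKM against 117, 119 and 79.6, with 30.6 and 18 in sham (-3.82 ± 0.28). Fosl1, a member of AP-1, stood at 2.86, 2.12 and 2.85 RPKM against 17.9, 14.5 and 9.48 (-2.8 ± 0.20), above the sham values of 0.824 and 0.774 in both groups. Ier5 and Klf6 differed by -2.06 ± 0.15 and -1.94 ± 0.16. The genes best known from tissue dissociation, Fos, Jun and Egr1, differed by -1.27 ± 0.28, -1.09 ± 0.22 and -2.1 ± 0.21. These genes also respond to the dissociation and sorting of cells, and the times of these steps are not stated in the labels. Their part in the difference was not tested, and it cannot be told apart from pneumonectomy. Of the list, 19 members had their lowest pneumonectomy value in library C, as did 28.8% of all genes.

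Genes of cell division were higher after bleomycin. Mitosis genes are transcribed in cells that pass from DNA replication to division, so their level follows the share of dividing cells. Of 36 listed genes, 33 passed the filter, but 29 of these passed it through the bleomycin libraries alone, so their count says little by itself. Without the filter all 36 were called higher, where 6517 of 31266 genes (20.8%) were. Their summed level was 138, 109 and 115 RPKM after bleomycin, 9.71 to 10.1 after pneumonectomy and 6.87 and 7.94 in sham. Mki67, which encodes the proliferation antigen Ki-67, stood at 6.2, 5.12 and 5.02 RPKM against 0.344, 0.406 and 0.344, with 0.097 and 0.153 in sham (3.16 ± 0.27, adjusted p = 1.21e-06). The pneumonectomy libraries lay above sham for Mki67, and the bleomycin libraries above both. Plk1, a mitotic kinase, stood at 4.85, 3.82 and 4.4 RPKM against 0.164, 0.151 and 0.184 (3.69 ± 0.17), and Ccna2, cyclin A2, at 9.06, 6.81 and 7.37 against 0.583, 0.582 and 0.542 (3.12 ± 0.16). Since the pneumonectomy levels were below 1 RPKM, these differences depend on the pseudocount, and with 1 RPKM added those of Mki67 and Plk1 were 2.0 and 2.0. Of the 33 tested members, 32 had their highest bleomycin value in replicate 1, as did 25.5% of all genes. Endothelial and macrophage sums were lowest in that library, and this describes only the order of the libraries.

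The genes of DNA replication gave 27 higher, 1 lower (Gins2) and 1 not called (Pcna) of 29 tested of 38, with a median of 1.38. Of the 29, 14 passed the filter through the bleomycin libraries alone, so the count and median say little by themselves. Without the filter 35 of the 38 were called higher and none lower, where 20.8% of 31266 genes were called higher. Mcm6, a subunit of the replicative helicase, stood at 4.89, 3.76 and 4.29 RPKM against 0.464, 0.392 and 0.383, with 0.543 and 0.429 in sham (2.69 ± 0.17). Mcm3, Mcm2 and Mcm7 of the same complex differed by 1.87 ± 0.12, 2.39 ± 0.15 and 1.48 ± 0.10, and Rrm2, a subunit of the enzyme that makes deoxynucleotides, by 2.86 ± 0.18. For the Mcm genes and Rrm2 the pneumonectomy libraries lay within or below the sham range.

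Many mitosis genes share a CCAAT box and a cell cycle genes homology region (CHR, letters TTTGAA) close to the start. Of 29 listed mitosis genes with a RefSeq promoter, 23 held CCAAT (79.3%), against 34.5% of 27025 promoters and 35.7% of those of tested genes, on either strand. The letters TTTGAA were found in 8 of the 29 (27.6%), against 16.3% and 9.93%, and the same 8 held both motifs, against 5.73% and 3.77%. The promoters of Cdc20 and Ccnb2 are shown as those of smallest p with both motifs, in capitals, which do not overlap in these sequences. In Ccnb2 the letters TTTGAA lie before all 3 CCAAT boxes and not close to the start. A match describes the letters only, and whether it acts as a CHR was not tested. Cdc20, an activator of the anaphase-promoting complex, stood at 9.4, 6.51 and 7.29 RPKM against 0.494, 0.405 and 0.458 (3.39 ± 0.19), and Ccnb2, cyclin B2, differed by 3.12 ± 0.20. The sequences lie at chr4:118437344-118437593 (minus strand) and chr9:70421555-70421804 (minus strand) of GRCm38.p6 and are written 5′ to 3′.
Cdc20: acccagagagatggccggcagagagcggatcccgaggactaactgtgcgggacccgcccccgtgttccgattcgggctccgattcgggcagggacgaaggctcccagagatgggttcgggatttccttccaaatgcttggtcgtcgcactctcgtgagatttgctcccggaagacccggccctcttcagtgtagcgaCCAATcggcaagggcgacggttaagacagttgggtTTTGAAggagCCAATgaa
Ccnb2: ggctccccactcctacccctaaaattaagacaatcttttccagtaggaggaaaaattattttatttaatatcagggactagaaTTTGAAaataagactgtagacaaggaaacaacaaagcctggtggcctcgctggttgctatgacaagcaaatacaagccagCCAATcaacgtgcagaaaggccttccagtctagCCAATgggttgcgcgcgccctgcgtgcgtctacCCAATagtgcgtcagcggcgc

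Genes of p53 signalling and senescence, which restrain division, went in both directions. Of 24 p53 targets and senescence genes, 10 were higher, 9 lower and 5 not called, with a median of 0.17. On the scale as deposited 14 were higher and 5 lower, with a median of 0.62. Of the 24 genes, 1 passed the filter through the day 14 bleomycin libraries alone. Cdkn2a, an inhibitor of cyclin-dependent kinases that marks senescent cells, stood at 2.48, 2.11 and 2.36 RPKM against 0.0912, 0.0792 and 0.21, with 0.0253 and 0.0711 in sham (3.12 ± 0.36), and its neighbour Cdkn2b differed by 2.0 ± 0.28. The pneumonectomy levels of Cdkn2a lay near the added 0.1 RPKM, so its difference depends on the pseudocount. Cdkn1a, which encodes p21 and is the main p53 target in arrest, stood at 38.5, 51.3 and 49.3 RPKM against 31.3, 33.1 and 27.2 and was not called (0.13 ± 0.11, adjusted p = 0.324). It was called on the scale as deposited (0.59), and both groups exceeded the sham values of 14 and 11.5. Phlda3, a p53 target that restrains AKT, stood at 37.1, 34.2 and 36.3 RPKM against 7.19, 6.44 and 7.76, with 11.2 and 13.5 in sham (1.85 ± 0.08). The death genes Bax and Pmaip1 differed by 1.26 ± 0.10 and 2.73 ± 0.24. Lower members were Gdf15 (-2.07 ± 0.18) and the stress sensor Sesn1 (-0.72 ± 0.07). Mdm2, the p53 ubiquitin ligase, was lower by a small difference (-0.32 ± 0.10). The scale as deposited shifts the median of all genes by more, 0.45, so the sign for Mdm2 is uncertain.

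Interferon-stimulated genes were higher after bleomycin in most cases. Of 24 tested, 16 were higher, 3 lower (Irf1, Gbp2 and Ifi27) and 5 not called, with a median of 1.16. Oas1a, an antiviral synthetase, stood at 1.86, 3.75 and 2.28 RPKM against 0.305, 0.148 and 0.239 (2.64 ± 0.28), and its relative Oas2 at 1.09, 3.63 and 2.14 against 0.189, 0.143 and 0.183 (2.63 ± 0.32). Rtp4 and Psmb8, a subunit of the immunoproteasome, differed by 1.89 ± 0.23 and 1.53 ± 0.19. Oas1a, Oas2, Rtp4 and Psmb8 were highest in bleomycin replicate 2, where the macrophage sum was highest. In replicate 1, where that sum was lowest, 20 of the 24 genes had their lowest bleomycin value, as did 56.0% of all genes. Immune cells and endothelium express these genes too, and their part was not tested. Of the 24 genes, 3 passed the filter through the bleomycin libraries alone.

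Genes of metabolism split within their pathways. Of 21 glycolysis genes tested, 13 were higher and 7 lower, with Pfkfb4 not called and a median of 0.35. Among the higher genes were Hk1, Pfkl, Gapdh, Ldha and Pdk1. Eno1, enolase, stood at 15.5, 12.4 and 14.2 RPKM against 3.98, 3.64 and 4.63 (1.3 ± 0.11), and Pgk1, phosphoglycerate kinase, at 19.2, 15 and 16.9 against 6.57, 5.91 and 6.27 (0.96 ± 0.10). Lower after bleomycin, besides Hk2, were the glucose transporter Slc2a1 (-1.6 ± 0.19), Pfkfb3, which makes an activator of phosphofructokinase (-1.44 ± 0.13), and the phosphofructokinase Pfkp (-0.96 ± 0.09), together with Pfkm, Slc16a1 and Pdk4. Hk2 and Pfkfb3 were higher in the pneumonectomy libraries than in either sham library. Of 21 sterol synthesis genes, 8 were higher, 6 lower and 7 not called, a split that became 15 and 1 on the scale as deposited. The enzymes Ebp and Mvd differed by 0.78 ± 0.09 and 0.74 ± 0.12, and Insig1, a sterol sensor that restrains the pathway, by -1.59 ± 0.18.

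Of 26 genes of the unfolded-protein response and secretion, 2 were higher, 14 lower and 10 not called, with a median of -0.36 that turned to 0.10 on the scale as deposited. Hspa5, the main chaperone of the endoplasmic reticulum, stood at 76.7, 72.8 and 76.3 RPKM after bleomycin, 214, 216 and 161 after pneumonectomy and 135 and 106 in sham (-1.84 ± 0.16). Herpud1, Atf6 and Dnajc3 differed by -1.7 ± 0.15, -1.05 ± 0.07 and -1.01 ± 0.09. Asns, asparagine synthetase, was higher at 3.74, 3.19 and 3.38 RPKM against 0.406, 0.412 and 0.43 (2.36 ± 0.17), as was Sec61b. Of 25 oxidant and antioxidant genes, 6 were higher, 14 lower and 5 not called, with a median of -0.40 (0.04 on the scale as deposited). Nox4, an oxidase that makes hydrogen peroxide and is known from fibrosis, was lower after bleomycin, at 4.75, 5.22 and 4.05 RPKM against 9.83, 9.62 and 10.3, with 8.65 and 9.05 in sham (-1.53 ± 0.09). Sod3, extracellular superoxide dismutase, differed by -1.98 ± 0.08, Hmox1, haem oxygenase, by -2.08 ± 0.14, and Gsta3 and Txnrd1 by -2.52 ± 0.13 and -1.55 ± 0.14. Cybb, the oxidase subunit of phagocytes, was higher (2.3 ± 0.44).

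Prostaglandins and cyclic nucleotides can restrain fibroblasts. Of 26 genes of these systems, 7 were higher, 15 lower and 4 not called, with a median of -0.61. On the scale as deposited 9 were higher and 9 lower, with a median of -0.15. Ptgs2, the inducible cyclooxygenase, stood at 11, 10.2 and 7.58 RPKM after bleomycin, 134, 141 and 70.7 after pneumonectomy and 55.1 and 33.2 in sham (-3.99 ± 0.38). Ptgis, prostacyclin synthase, stood at 26.5, 22.5 and 24.3 RPKM against 56.1, 55.6 and 67.9 (-1.75 ± 0.12). Hpgd, which degrades prostaglandins, was higher (2.56 ± 0.34). Npr2, a receptor that makes cyclic GMP, differed by -1.33 ± 0.06, the phosphodiesterase Pde4d by -1.27 ± 0.10 and the receptor Adra1a by -2.74 ± 0.18.

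Growth factors that act on epithelium and vessels gave 6 higher, 11 lower and 6 not called of 23 tested, with a median of -0.35 (0.10 on the scale as deposited). Hgf, hepatocyte growth factor, which acts on alveolar epithelium, stood at 9.8, 6.69 and 7.71 RPKM against 9.8, 12.3 and 7.82 (-0.76 ± 0.21, adjusted p = 0.00616). The groups overlapped, both exceeded the sham values of 2.88 and 2.93, and the call was lost on the scale as deposited (-0.30). Angpt1, a ligand that stabilises vessels, stood at 6.7, 6.49 and 6.14 RPKM against 16.5, 16.7 and 17.8 (-1.85 ± 0.12). Fgf10 and Fgf7, ligands for epithelial receptors, were lower (-1.07 ± 0.16 and -1.11 ± 0.17), as was Igf2 (-1.94 ± 0.19). Vegfa and Igf1 were not called (0.24 ± 0.17 and 0.31 ± 0.21). Kitl, stem cell factor, was higher (1.21 ± 0.13), as was Pdgfb (3.54 ± 0.26), a ligand that endothelium makes and that was lowest in bleomycin replicate 1, at 13.4, 26.3 and 24.9 RPKM against 1.19, 0.80 and 1.83.

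Transcription factors of lung mesenchyme split into groups. Of 31 tested, 9 were higher, 18 lower and 4 not called, with a median of -0.43 (0.03 on the scale as deposited). Higher were Snai1 (1.71 ± 0.19), Runx2 (1.69 ± 0.27), Meox1 (1.57 ± 0.32) and Scx (1.44 ± 0.25), of which Snai1 is known from mesenchymal transition, Runx2 from bone and Scx from tendon. Runx1 was not called (0.44 ± 0.24, adjusted p = 0.118). Lower were Ebf2 and Ebf1, Osr1 and Osr2, and Tcf21. Osr1 stood at 5.27, 6.41 and 5.21 RPKM after bleomycin, 9.96, 11.7 and 11.5 after pneumonectomy and 35 and 32.5 in sham (-1.43 ± 0.12), so that both groups lay below sham. Ebf1 and Ebf2 differed by -1.9 ± 0.14 and -2.94 ± 0.27, and the hedgehog effector Gli1 by -1.5 ± 0.16.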

How the data were processed

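Levels were RPKM values computed by the authors and deposited as 1 table of 43346 genes for 13 libraries, per the file headers. The submitters' processing notes name the builds mm10 and, for pneumonectomy, GRCm38. Which aligner, counter and annotation were used is not given in the sources used here. No read counts entered the work, so no count test was run. The filter required 1 RPKM or more in 2 or more libraries. RPKM were scaled between libraries with trimmed-mean factors (30% of ratios and 5% of levels trimmed), 0.1 was added, and log2 values of all 13 libraries were fitted with a mean per group in limma 3.58.1 (R 4.3.3, intensity trend, robust), which thus shares its spread over all groups. Adjusted p values are two-sided Benjamini-Hochberg values called at 0.05, and 95% intervals come from the same fit. The planned tests were the limma fit and its alternatives (pseudocount, filter, scaling, length trend, compared groups alone, leaving out each library). Its script was tested on simulated data. The members, 38 gene lists and rules were chosen with earlier results of these data known.

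Genes were named by rule: the 10 per direction of greatest difference (groups not overlapping, higher mean 5 RPKM or more), the 5 per direction of greatest RPKM difference, up to 5 called members of smallest p per list, a panel of 20 genes, and the 3 most abundant markers of each other cell type. This gave 202 genes, and list members beyond these were chosen after their values were seen. Some genes that the rule names are not reported here. Symbols on several rows (131 entries) or turned into dates (27) were not named. Older symbols in the table (Ctgf, Cyr61, Leprel2 and others) were matched through RefSeq synonyms. All 37 mitochondrial genes were listed at 0. Depth came from the lowest values and exon lengths of GENCODE M21, which 94.8% of tested genes had. Coordinates of genes are from GENCODE M21 (GRCm38).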

Additional observations from a re-analysis of the deposited data

Results flagged for a closer look

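For 15 of the named genes the day 14 groups lay on opposite sides of sham. In each, all libraries of a group lay beyond both sham libraries, the fitted change from sham exceeded 2-fold in both groups, and the difference between those changes, which is the difference between the groups, was called by limma. The changes share the same 2 sham libraries, so each gene's values are given side by side as a description. Of all tested genes 76 had this arrangement, 6 with bleomycin above sham and 70 with bleomycin below.

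Below sham after bleomycin and above it after pneumonectomy were 13 of the 15. The difference was -5.47 for Ptx3, from changes of -3.23 and 2.24. Sost gave -5.26, from -4.09 and 1.17. Has1 gave -5.18, from -3.2 and 1.98. Tnfaip6 gave -5.16, from -2.71 and 2.45. Cxcl1 gave -4.69, from -2.18 and 2.5. Il6 gave -4.54, from -1.88 and 2.67. Nr4a3 gave -4.39, from -1.32 and 3.07. Itpkc gave -4.25, from -1.15 and 3.1. Ptgs2 gave -3.99, from -2.41 and 1.59. Maff gave -3.82, from -1.46 and 2.36. Gadd45b gave -3.36, from -1.64 and 1.72. Slc7a10 gave -2.96, from -1.58 and 1.37. Col4a5 gave -2.83, from -1.42 and 1.4. Library C had the lowest pneumonectomy value for Ptx3, Has1, Tnfaip6, Cxcl1, Il6, Nr4a3, Itpkc, Ptgs2 and Maff, but not for Sost, Gadd45b, Slc7a10 or Col4a5.

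The other 2 genes, C1qa and C1qb, which encode complement subunits made by macrophages, went the opposite way. C1qa gave 4.64, from 2.5 after bleomycin and -2.14 after pneumonectomy, and C1qb gave 4.43, from 2.65 and -1.78. With a pseudocount of 1 RPKM the C1qb difference was 2.75. The summed macrophage markers stood at 65.5, 50.7 and 56.7 RPKM after pneumonectomy and at 52.1 and 45.5 in sham.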

How the results depend on the processing

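Of the 202 named genes, 186 kept their side of the threshold in the 13 alternatives recomputed for them. None changed to the opposite direction with a call. Uncalled differences could change sign within the 186, as those of Col1a1, Col1a2 and Postn did. Against a minimum change of 1.5-fold, 3269 genes passed in place of 9158, 1421 higher and 1848 lower. On the scale as deposited 7918 were higher and 2307 lower, in place of 4684 and 4474. Leaving out 1 library gave 8471 to 8960 calls, 4334 to 4527 higher and 4137 to 4436 lower. Without a filter 12511 of 31266 genes were called. The list medians of the fibrillar collagens (0.42), unfolded-protein response (0.10), growth factors (0.10), oxidant genes (0.04) and mesenchyme factors (0.03) turned positive on the scale as deposited. Differences of genes below 1 RPKM in a group shrank with a pseudocount of 1 RPKM, for example from 2.63 to 1.24 for Oas2, -2.94 to -1.33 for Ebf2 and 1.65 to 0.75 for Wnt6. No paired analysis was possible because the pneumonectomy columns carry no replicate number. The planned count test was not run because the values are RPKM. With 3 libraries a group, the sign of the uncalled Col1a1 and Postn differences could not be resolved.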

Other observations

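Genes of nerve sheath, pericytes and alveolar epithelium gave further values. S100b, a calcium-binding protein of Schwann cells, was higher after bleomycin (1.13 ± 0.37, a call lost without bleomycin replicate 1 or 3 or library B). The receptor gene Ngfr stood at 0.369, 0.262 and 1.79 RPKM in libraries A, B and C, and its call (adjusted p = 0.0461) was lost in 10 of the 13 alternatives. The pericyte channel subunits Abcc9 and Kcnj8 differed by -3.04 ± 0.19 and -1.8 ± 0.18, while Pdgfrb, the receptor shared by pericytes and fibroblasts, differed by -0.55 ± 0.17 and was not called on the scale as deposited (-0.08). Sftpc, the surfactant protein of alveolar type 2 cells, stood at 1.17, 5.29 and 13 RPKM against 65.1, 28.6 and 25.1 without a call (-3.48 ± 1.74, adjusted p = 0.0934), and Hopx was the only 1 of 13 alveolar epithelial markers called (1.94 ± 0.36).

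Xist was close to 0 in both day 14 groups. The Y-linked helicase gene Ddx3y stood at 9.91, 10.5 and 9.93 RPKM after bleomycin and 21.5, 23.8 and 15.9 after pneumonectomy (-1.45 ± 0.42). The other Y-linked genes tested, Uty and Eif2s3y, were not called. Within the pneumonectomy group library C stood apart in inflammatory genes. Il6 was at 303, 315 and 123 RPKM in A, B and C, Ptgs2 at 134, 141 and 70.7 and Hk2 at 48.9, 52.1 and 29.1, with the lowest value in C each time, and without library C the Il6 difference was -5.02.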
